A study of Mus musculus with 2 samples.

Results

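Marco-positive macrophages of the ischemic brain were selected on their Marco reads, after cells with microglial or neutrophil transcripts had been set aside. They numbered 100 of 22960 cells, of which 94 came from replicate 1 and 6 from replicate 2. Cells were barcodes with 1000 or more unique molecular identifiers (UMIs, each standing for 1 captured transcript), 500 or more genes and a mitochondrial share of up to 10%. Members had fewer than 10 UMIs per 10000 from the microglial genes P2ry12, Tmem119, Sparc, Gpr34, Olfml3 and Siglech together, fewer than 50 per 10000 from S100a8 and S100a9, and at least 2 Marco UMIs. The members were thus chosen by Marco and those genes, whose values are given as a description only.

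The series holds single-cell RNA from 1 group of Foxp3Egfp mice, a strain with a fluorescent reporter of regulatory T cells. Both libraries came from ischemic brain of mice aged 6 to 8 weeks and were sorted as CD45+CD11b+CD3-F4/80+ cells before 3' droplet sequencing. No uninjured group was analysed here, so the comparisons run between kinds of cell within each library. The labels do not say that the replicates were separate animals, and they state that cDNA of stroke mice was combined for sequencing.

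MARCO is a collagenous class A scavenger receptor that binds bacteria, particles and modified lipoproteins. In healthy mice it is best known on macrophages of the splenic marginal zone and the peritoneum and on alveolar macrophages, and bacterial products can induce it on others. After a stroke the injured brain holds resident microglia, macrophages of its borders, and monocytes and macrophages that enter from the blood.

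The promoters of Marco and of 3 chemokine or lectin genes described with it are shown because the genes were high in the same cells. Each line gives the 250 bases before the gene start from RefSeq on GRCm38.p6, for genes whose RefSeq start is also that of GENCODE vM21. Capitals mark matches on either strand to 5 motifs, AP-1 (TGANTCA), NF-kB (GGGA and CC with 4 bases between them), C/EBP (TTGCNNAA), the antioxidant response element core (TGACNNNGC) and PU.1 (GAGGAAGT).
Marco: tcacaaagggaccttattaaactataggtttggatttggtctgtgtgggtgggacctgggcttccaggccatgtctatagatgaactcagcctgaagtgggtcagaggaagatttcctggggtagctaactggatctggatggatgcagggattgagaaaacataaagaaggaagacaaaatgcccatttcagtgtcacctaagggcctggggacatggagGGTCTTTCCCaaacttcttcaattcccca
Ccl6: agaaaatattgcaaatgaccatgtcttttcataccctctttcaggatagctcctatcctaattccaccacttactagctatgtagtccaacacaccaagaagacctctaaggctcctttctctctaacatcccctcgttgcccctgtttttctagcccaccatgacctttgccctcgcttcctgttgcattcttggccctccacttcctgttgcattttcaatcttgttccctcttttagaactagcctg
Ccl9: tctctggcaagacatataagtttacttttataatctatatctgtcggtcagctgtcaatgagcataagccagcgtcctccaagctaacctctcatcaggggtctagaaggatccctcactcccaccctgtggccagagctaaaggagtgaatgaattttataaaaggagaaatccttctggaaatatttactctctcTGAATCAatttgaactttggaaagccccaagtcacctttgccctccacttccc
Clec4a1: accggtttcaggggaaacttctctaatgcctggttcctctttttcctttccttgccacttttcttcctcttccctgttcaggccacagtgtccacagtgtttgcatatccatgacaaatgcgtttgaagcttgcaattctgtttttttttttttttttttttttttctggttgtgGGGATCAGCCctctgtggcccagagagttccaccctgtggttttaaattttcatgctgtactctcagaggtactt
The Marco promoter lies at chr1:120505025-120505274 on the minus strand, directly before the gene at 120474538 to 120505024. The Ccl6 promoter is at chr11:83593088-83593337 and that of Ccl9 at chr11:83578637-83578886, both on the minus strand. The Clec4a1 promoter is at chr6:122921598-122921847 on the plus strand. An NF-kB match lay 29 bases before the start of Marco and 75 bases before that of Clec4a1, and 17.6% of 32851 promoters of this length hold one. An AP-1 match lay 53 bases before Ccl9, and 6.75% of promoters hold one. The Ccl6 window held none of the 5 motifs. The C/EBP, antioxidant and PU.1 letters were in none of the 4 windows, and 9.56%, 10.2% and 2.44% of promoters hold them. These matches are descriptions of letters, not binding sites.

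Members were set beside other kinds of cell. Marco-zero macrophages (6117 cells) passed the same limits on microglial and neutrophil genes, had no Marco UMI, at least 2 UMIs summed over a set of macrophage genes that includes Cd68, Csf1r, Adgre1 and Fcgr1, and no T, NK or dendritic cell transcript of the rule. Monocytes (303 cells) had no Marco UMI and at least 2 UMIs each of Ly6c2 and Plac8. They were left out of the Marco-zero macrophages. Members had to pass no such rule on macrophage genes, on T, NK or dendritic cell transcripts, or on Ly6c2 and Plac8. The libraries held 101893367 UMIs in replicate 1 and 62850768 in replicate 2. Median UMIs per cell were 9657 in members, 6601 in Marco-zero macrophages and 2523 in monocytes of replicate 1. In replicate 2 they were 11446 in members, 7548 in Marco-zero macrophages and 6599 in monocytes. Members were thus the deepest of these 3 kinds in both libraries. The libraries shared 31 cell barcodes, and no member was among them.

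Replicate 2 held too few members for a test over samples, so each comparison rests on replicate 1 with replicate 2 given beside it, and no p-value is given. Levels are UMIs summed over a kind of cell, as CPM, a kind's UMIs of a gene relative to all its UMIs, scaled by trimmed means (TMM). Intervals are exact 95% intervals and cover counting error only. A gene is called higher or lower where the levels of replicate 1 differed at least 3-fold, with at least 50 CPM and a UMI in at least 25% of cells in the higher kind.

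Marco-positive cells made up 1.62% of the cells below both limits in replicate 1 (94 of 5815, exact binomial interval 1.31% to 1.97%) and 0.445% in replicate 2 (6 of 1348, 0.164% to 0.966%). Marco ran from 2 to 190 UMIs per member in replicate 1, with a median of 8, and from 3 to 16 in replicate 2, with a median of 13. Just inside the threshold stood 14 members of replicate 1 with 2 Marco UMIs, and just outside it 54 cells with 1. The members held 1591 of the 2145 Marco UMIs in cells of replicate 1 and 64 of 77 in replicate 2. A further 33 cells of replicate 1 and 1 cell of replicate 2 had at least 2 Marco UMIs but exceeded the limit on microglial genes.

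Marco UMIs also occurred in microglia, and whether as stray RNA or as expression was not tested. Of 3764 microglia in replicate 1 (median 3122 UMIs), 0.611% had at least 1 Marco UMI and 1 cell had at least 2. Of 4345 microglia in replicate 2 (median 5038 UMIs), 0.0460% had at least 1 and 0 had at least 2. Barcodes under 100 UMIs, which hold free RNA, carried unscaled Marco at 77.7 CPM in replicate 1 and 0.361 CPM in replicate 2. The part of free RNA in cells with few Marco UMIs was not tested.

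The label was checked against markers of macrophages and of other cells. Adgre1, which encodes the F4/80 antigen of the sort, stood at 396 CPM in members and 168 CPM in Marco-zero macrophages of replicate 1, and at 296 CPM in members and 102 CPM in Marco-zero macrophages of replicate 2. Lyz2, the lysozyme of myeloid cells, had at least 1 UMI in 100% of members in replicate 1 and 100% in replicate 2. Free RNA also carried Lyz2, at 11404 CPM (unscaled) in replicate 1 and 4077 CPM in replicate 2, so these shares do not identify the cells. The TMM-scaled sum of 7 monocyte-derived macrophage markers, Lyz2 among them, was 13735 CPM in members and 36080 CPM in Marco-zero macrophages of replicate 1. In replicate 2 it was 15153 CPM in members and 24256 CPM in Marco-zero macrophages. All 7 NK cell markers were at 0 in the members of both libraries. T cell markers summed to 3.57 CPM (unscaled) in members and 2.19 CPM in Marco-zero macrophages of replicate 1, and to 0 in the members of replicate 2. Marco-zero macrophages had to lack several of these T cell transcripts by rule and members did not, so the sums are not alike.

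Several defining markers of tissue macrophages known to carry MARCO were at 0, while others were read. Of 9 alveolar macrophage markers, Car4, Krt79, Cidec and Fabp1 were at 0 in members of replicate 1 and all 9 were at 0 in replicate 2. Their unscaled sum in replicate 1 was 33.9 CPM in members and 209 CPM in Marco-zero macrophages. TMM-scaled, it was 30.3 CPM in members and 236 CPM in Marco-zero macrophages. Most of that was Chil3, at 19.96 CPM in members and 182 CPM in Marco-zero macrophages. Chil3 is also on the list of monocyte markers. Of 7 peritoneal markers, Gata6, Prg4, Alox15, Garnl3, Timd4 and Selp were at 0 in the members of both libraries. The peritoneal sum, which in members rests on Icam2, was 8.78 CPM (TMM-scaled) in members and 6.17 CPM in Marco-zero macrophages of replicate 1, and 8.23 CPM in members and 8.89 CPM in Marco-zero macrophages of replicate 2. Of 7 marginal zone or Kupffer cell markers, Cd209b, Clec4f and Timd4 were at 0 in the members of both libraries. The TMM-scaled sum of that list was 169 CPM in members and 149 CPM in Marco-zero macrophages of replicate 1, with a UMI in 57.4% of members and 29.2% of Marco-zero macrophages, and 32.9 CPM in members and 69.96 CPM in Marco-zero macrophages of replicate 2. Most of it in replicate 1 was Cd5l, a secreted scavenger receptor protein of macrophages, at 119 CPM in members and 108 CPM in Marco-zero macrophages of replicate 1, and at 0 CPM in members and 4.09 CPM in Marco-zero macrophages of replicate 2.

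The TMM-scaled sum of 10 border-associated macrophage markers was 2837 CPM in members and 2975 CPM in Marco-zero macrophages of replicate 1, and 8037 CPM in members and 2439 CPM in Marco-zero macrophages of replicate 2. Unscaled, it was 3170 CPM in members and 2632 CPM in Marco-zero macrophages of replicate 1, the opposite order. The list includes Mrc1, a proposed marker. Its other called gene was Ms4a7, which was lower, and its median log2 ratio over 6 measured genes was -0.34 in replicate 1 and 1.34 in replicate 2. Pf4, a platelet-type chemokine also made by border macrophages, stood at 1788 CPM in members and 1373 CPM in Marco-zero macrophages of replicate 1, and at 6129 CPM in members and 1302 CPM in Marco-zero macrophages of replicate 2. The 6 members of replicate 2 had 411, 292, 38, 4, 0 and 0 Pf4 UMIs, so most came from a pair of cells. Lyve1 and Cd163, both typical of macrophages at the brain borders, had 1 and 2 UMIs in members of replicate 1 and 0 and 0 in those of replicate 2.

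The other proposed markers of these cells lay higher in members than in Marco-zero macrophages in both libraries. They were proposed from these data, so this is a description. Against monocytes of replicate 1, Saa3, Mrc1 and Cd36 were called higher, while Ccl6 and Clec4a1 were not called. Saa3, an acute phase apolipoprotein, stood at 1268 CPM in members and 105 CPM in Marco-zero macrophages of replicate 1, and at 1086 CPM in members and 40.2 CPM in Marco-zero macrophages of replicate 2. Mrc1, the mannose receptor, stood at 319 CPM in members and 42.3 CPM in Marco-zero macrophages of replicate 1, and at 954 CPM in members and 39.1 CPM in Marco-zero macrophages of replicate 2. Cd36, a receptor for oxidised lipoproteins, stood at 1237 CPM in members and 373 CPM in Marco-zero macrophages of replicate 1, and at 411 CPM in members and 106 CPM in Marco-zero macrophages of replicate 2. Members exceeded Marco-zero macrophages in both libraries for each of these genes. Ccl6, a CC chemokine of myeloid cells, stood at 1744 CPM in members and 244 CPM in Marco-zero macrophages of replicate 1, and at 2435 CPM in members and 435 CPM in Marco-zero macrophages of replicate 2. The 6 members of replicate 2 had 189, 73, 7, 18, 9 and 0 Ccl6 UMIs. Clec4a1, a C-type lectin receptor, stood at 241 CPM in members and 25.9 CPM in Marco-zero macrophages of replicate 1, and at 214 CPM in members and 51.2 CPM in Marco-zero macrophages of replicate 2.

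**Figure D1:**
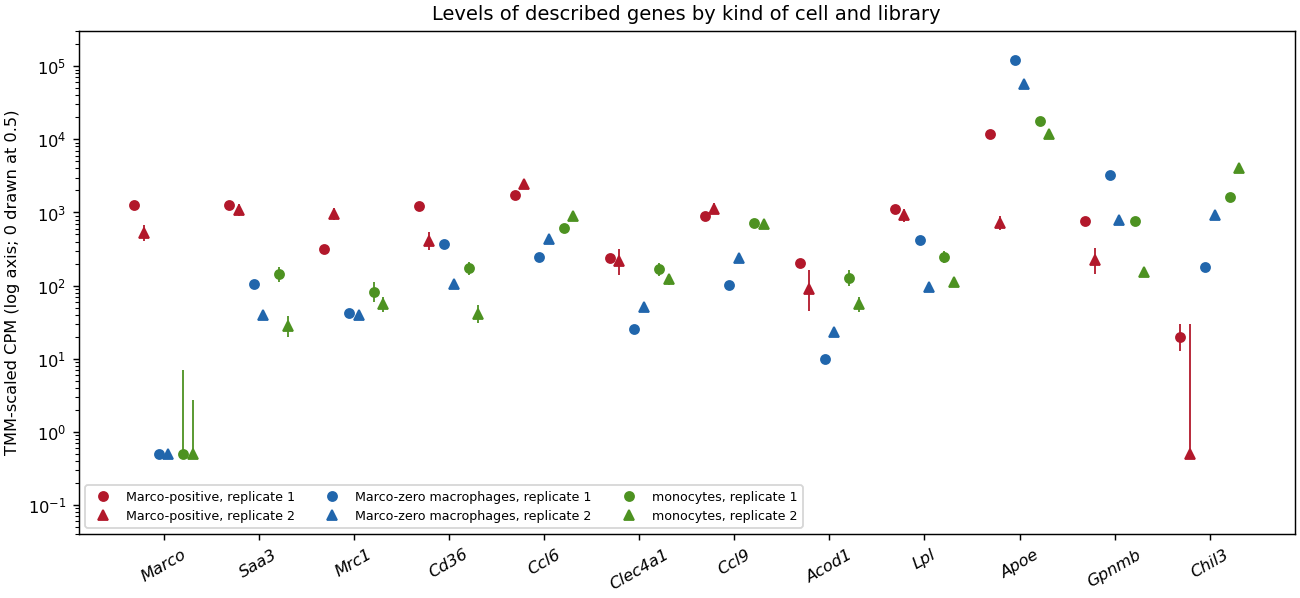
TMM-scaled CPM on a log axis of selected genes in Marco-positive macrophages, Marco-zero macrophages and monocytes, with circles for replicate 1, triangles for replicate 2 and bars for exact 95% Poisson intervals, which cover counting error only; a level of 0 is drawn at 0.5. Saa3, Mrc1 and Cd36 lie highest in the Marco-positive macrophages of both libraries, and Apoe lies lowest there.

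Saa3 had a UMI in 59.6% of members and 8.18% of Marco-zero macrophages of replicate 1, and in 4.36% of microglia (median 3121 UMIs). Whether Saa3 in microglia was stray RNA or expression was not tested. With every cell thinned to 2000 UMIs, which left out 4 members, 245 Marco-zero macrophages and 1250 microglia, Saa3 was found in 44.4% of members, 4.31% of Marco-zero macrophages and 2.85% of microglia. Per cell of replicate 1, Saa3 ran from 0 to 361 UMIs per 10000 in members, with a median of 2.45, and from 0 to 217 in Marco-zero macrophages, with a median of 0. Saa3 was therefore abundant in some members and not detected in others. Free RNA carried unscaled Saa3 at 246 CPM in replicate 1, against 88.7 CPM over all cells. In replicate 2 free RNA held it at 28.6 CPM, against 27.1 CPM over all cells. The part of free RNA in cells with few Saa3 UMIs was not tested. Of the 6 members of replicate 2, 3 had Saa3 (5, 106 and 21 UMIs), 3 had Mrc1 (82, 26 and 8 UMIs) and 3 had Cd36 (9, 17 and 24 UMIs). The shallowest cells, with 3921 and 3048 UMIs, had none of these 3 genes.

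Levels differed with the Marco count of the cell. In replicate 1, unscaled Apoe was 48283, 22103 and 8221 CPM in the 54 cells with 1 Marco UMI, 34 members with 2 to 4 and 60 members with 5 or more. Slc13a3, a sodium-coupled dicarboxylate transporter, was 128, 183 and 747 CPM in the same order. Ccl6 was 737, 1541 and 2169 CPM, and Clec4a1 was 124, 226 and 293 CPM. For these 4 genes the members with few Marco UMIs lay between the cells outside the threshold and the members with many. Saa3 was 374, 1388 and 1432 CPM, with both classes of member above the cells outside the threshold. The order did not hold for every gene. Mrc1, a proposed marker, was 213, 388 and 338 CPM and Pclaf 151, 322 and 217 CPM, both highest in the members with 2 to 4. The classes were set by Marco, the gene that chose the members. Median UMIs per cell were 8338.5, 10164 and 9527.5 in the 3 classes, with no test of the differences.

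**Figure D2:**
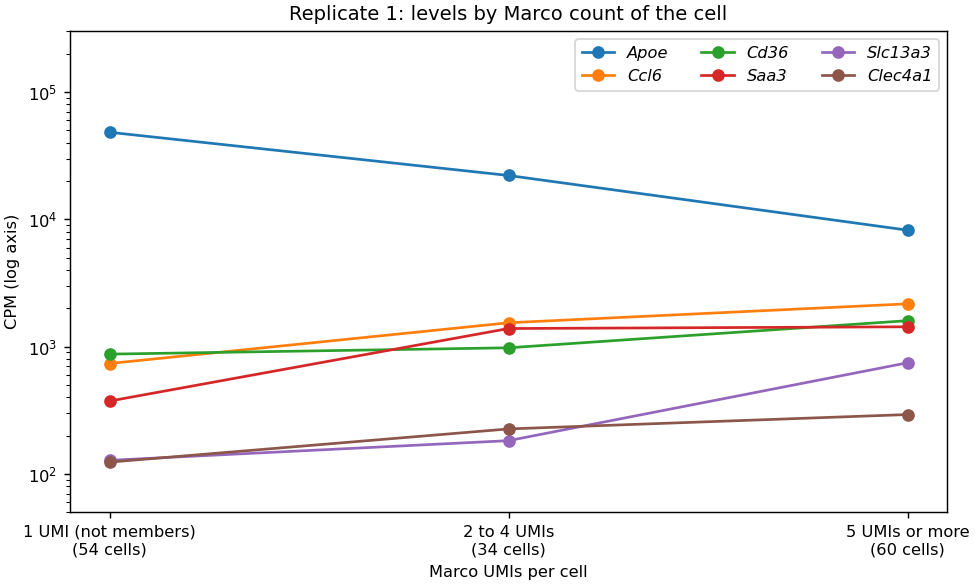
Unscaled CPM on a log axis of selected genes in cells of replicate 1 by Marco UMIs per cell, each point being the sum over the cells of a class. Apoe is lower and Slc13a3 higher in the class with the most Marco UMIs.

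Against Marco-zero macrophages, members had higher levels of several CC chemokines and formyl peptide receptors, and lower levels of several lipid handling, C1q and antigen processing genes. Of 2631 genes measured in replicate 1, 101 were higher (3.84%) and 124 lower (4.71%) in members. These counts take in genes off the autosomes, and 96 of the higher and 122 of the lower genes were autosomal. In replicate 2, 91 of the higher and 124 of the lower genes had the same sign, where 34.1% of all measured genes were higher and 65.9% lower. Past 3-fold in replicate 2 as well were 47 higher and 107 lower genes. The higher genes include Marco and the 5 other proposed markers, and the lower ones Cd68 and Olfml3, which entered the rules. Without scaling the split was 189 higher and 67 lower, and with RLE scaling 87 higher and 139 lower. With the macrophage and monocyte rules on both sides, which left 81 members of replicate 1, it was 90 higher and 114 lower. In cells of at least 5000 UMIs, 109 genes were higher and 126 lower, and 93 and 110 of these are among the genes called in all cells. Log2 ratios of CPM against Marco-zero macrophages are lower with TMM than without scaling, by 0.34 in replicate 1 and 0.47 in replicate 2.

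Slc13a3 headed the named genes, at 491 CPM in members and 17.4 CPM in Marco-zero macrophages of replicate 1 (log2 ratio 4.19 with 10 CPM added to both levels). It had a UMI in 47.9% of members, 1.80% of Marco-zero macrophages and 2.08% of microglia of replicate 1, and thinned to 2000 UMIs in 32.2%, 1.01% and 1.12%. In replicate 2 it had 1 UMI in members and 17 in Marco-zero macrophages, a ratio of 3.43 with a counting interval of 0.0821 to 21.9. The transporter was therefore high in replicate 1 and not resolved by the 6 cells of replicate 2. Acod1, the enzyme that makes itaconate, stood at 207 CPM in members and 9.83 CPM in Marco-zero macrophages of replicate 1, and at 90.5 CPM in members and 23.3 CPM in Marco-zero macrophages of replicate 2.

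Of 7 CC chemokines measured, 4 were higher and 0 lower (Ccl6, Ccl7, Ccl9 and Ccl12). Their median log2 ratio was 2.05 in replicate 1 and 1.002 in replicate 2, against -0.07 in replicate 1 and -0.30 in replicate 2 over all genes measured. The count and the median include Ccl6, a proposed marker, whose call is a description. Ccl9, a chemoattractant of myeloid cells, stood at 898 CPM in members and 101 CPM in Marco-zero macrophages of replicate 1, and at 1127 CPM in members and 241 CPM in Marco-zero macrophages of replicate 2. Ccl7, a monocyte chemoattractant, stood at 1123 CPM in members and 239.9 CPM in Marco-zero macrophages of replicate 1, and at 1793 CPM in members and 890.4 CPM in Marco-zero macrophages of replicate 2. Ccl12, a mouse relative of MCP-1, stood at 566 CPM in members and 129 CPM in Marco-zero macrophages of replicate 1, and at 2040 CPM in members and 159 CPM in Marco-zero macrophages of replicate 2. Members exceeded Marco-zero macrophages in both libraries for these genes. Named genes had to have the same sign in both libraries, so this was fixed for Ccl7 and Ccl9. The 6 members of replicate 2 had 63, 122, 63, 0, 0 and 0 Ccl12 UMIs. Their Ccl7 UMIs were 73, 101, 40, 2, 2 and 0, so most of both came from the deepest cells. Ccl2, the monocyte chemoattractant MCP-1, stood at 1734 CPM in members and 583 CPM in Marco-zero macrophages of replicate 1, and at 2904 CPM in members and 1813 CPM in Marco-zero macrophages of replicate 2, under 3-fold, and was called without scaling. Ccl3, an inflammatory CC chemokine, stood at 383 CPM in members and 416 CPM in Marco-zero macrophages of replicate 1, and at 321 CPM in members and 593 CPM in Marco-zero macrophages of replicate 2, and was not called.

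Of 3 CXC chemokines measured, 0 were higher and 1 lower. The lower one was the neutrophil attractant Cxcl2, at 305 CPM in members and 1073 CPM in Marco-zero macrophages of replicate 1, and at 41.1 CPM in members and 4071 CPM in Marco-zero macrophages of replicate 2, and it was not called without scaling. Of 7 chemoattractant receptors measured, 3 were higher and 2 lower (C5ar1, Fpr1 and Fpr2 higher, Cxcr4 and Ccrl2 lower), and the call of C5ar1 was lost with RLE scaling. Fpr1, a receptor for formylated bacterial peptides, stood at 69.5 CPM in members and 4.88 CPM in Marco-zero macrophages of replicate 1, and at 41.1 CPM in members and 4.23 CPM in Marco-zero macrophages of replicate 2. Its relative Fpr2 stood at 54.3 CPM in members and 4.12 CPM in Marco-zero macrophages of replicate 1, and at 65.8 CPM in members and 9.45 CPM in Marco-zero macrophages of replicate 2. Both receptors were higher in members than in Marco-zero macrophages of both libraries, which the naming rule required. In monocytes Fpr1 stood at 57.8 CPM in replicate 1 and 11.3 CPM in replicate 2. Fpr2 stood there at 57.8 CPM in replicate 1 and 27.8 CPM in replicate 2. In replicate 1 the levels in monocytes were thus near those in members.

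Of 8 C-type lectin receptors measured, 4 were higher and 0 lower (Clec4a1, Clec4a2, Mrc1 and Clec2d), of which Clec2d was not called with RLE scaling. Of 7 scavenger receptors measured, 2 were higher and 1 lower (Cd36 and Mrc1 higher, Scarb2 lower), and Scarb2 was not called without scaling. Cd36, Mrc1 and Clec4a1 are proposed markers, so their calls in these lists are a description. Msr1, another class A scavenger receptor, stood at 348 CPM in members and 135 CPM in Marco-zero macrophages of replicate 1, and at 271 CPM in members and 106 CPM in Marco-zero macrophages of replicate 2, under 3-fold with TMM and called higher without scaling.

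Of 14 lipid handling genes measured, 0 were higher and 6 lower (Fabp5, Plin2, Abca1, Apoe, Trem2 and Gpnmb), with a median log2 ratio of -1.21 in replicate 1 and -0.92 in replicate 2. Without scaling 4 of them were lower and Lpl was called higher. Apoe, the lipid carrier, stood at 11725 CPM in members and 121816 CPM in Marco-zero macrophages of replicate 1, and at 724 CPM in members and 57676 CPM in Marco-zero macrophages of replicate 2. Per cell of replicate 1 Apoe ran from 1.76 to 1926 UMIs per 10000 in members, with a median of 15.9, and had a median of 1001 in Marco-zero macrophages. The ranges of single cells overlap, while the medians lie far apart. Trem2, a lipid-sensing receptor, stood at 528 CPM in members and 2540 CPM in Marco-zero macrophages of replicate 1, and at 329 CPM in members and 1291 CPM in Marco-zero macrophages of replicate 2. Gpnmb, a glycoprotein of lipid-laden macrophages, stood at 758 CPM in members and 3286 CPM in Marco-zero macrophages of replicate 1, and at 222 CPM in members and 799 CPM in Marco-zero macrophages of replicate 2. Lpl, lipoprotein lipase, stood at 1108 CPM in members and 421 CPM in Marco-zero macrophages of replicate 1, and at 913 CPM in members and 97.2 CPM in Marco-zero macrophages of replicate 2, under 3-fold in replicate 1. The 6 members of replicate 2 had 43, 25, 41, 2, 0 and 0 Lpl UMIs.

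Of 6 complement genes measured, 1 was higher and 3 lower (C5ar1 higher, C1qa, C1qb and C1qc lower), and without scaling only C1qa of the C1q genes was called. C1qa, a subunit of C1q, stood at 1083 CPM in members and 4772 CPM in Marco-zero macrophages of replicate 1, and at 436 CPM in members and 2831 CPM in Marco-zero macrophages of replicate 2. Of 3 MHC class II and costimulation genes measured, 0 were higher and 3 lower (H2-DMa, H2-DMb1 and Ctss), of which only Ctss was called without scaling. Ctss, a protease of the class II pathway, stood at 826 CPM in members and 3927 CPM in Marco-zero macrophages of replicate 1, and at 461 CPM in members and 4170 CPM in Marco-zero macrophages of replicate 2. Of 8 matrix and repair genes measured, 0 were higher and 3 lower (Thbs1, Spp1 and Ecm1), of which only Thbs1 was called without scaling. Spp1, osteopontin, stood at 4996 CPM in members and 15540 CPM in Marco-zero macrophages of replicate 1, and at 1366 CPM in members and 7431 CPM in Marco-zero macrophages of replicate 2.

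Of 15 iron and antioxidant genes measured, 4 were higher and 0 lower (Slc40a1, Tfrc, Srxn1 and Gsr), with a median log2 ratio of 0.85 in replicate 1 and -0.48 in replicate 2. Tfrc, the transferrin receptor for iron uptake, stood at 101 CPM in members and 12.5 CPM in Marco-zero macrophages of replicate 1, and at 107 CPM in members and 3.10 CPM in Marco-zero macrophages of replicate 2. Slc40a1, the iron exporter ferroportin, stood at 119 CPM in members and 33.4 CPM in Marco-zero macrophages of replicate 1, and at 74.04 CPM in members and 25.4 CPM in Marco-zero macrophages of replicate 2. Gsr, glutathione reductase, stood at 299 CPM in members and 95.8 CPM in Marco-zero macrophages of replicate 1, and at 115 CPM in members and 185 CPM in Marco-zero macrophages of replicate 2. Tfrc and Slc40a1 kept their direction in replicate 2, which the naming rule required of Tfrc. Gsr had the opposite direction and was not called with RLE scaling. Without scaling Gclm and Txnrd1 were called higher as well.

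Of 5 cycling markers measured, 3 were higher and 0 lower (Mki67, Top2a and Ube2c). Mki67, the proliferation antigen, stood at 77.5 CPM in members and 24.2 CPM in Marco-zero macrophages of replicate 1, and at 0 CPM in members and 14.8 CPM in Marco-zero macrophages of replicate 2. Top2a, a topoisomerase of dividing cells, stood at 130.2 CPM in members and 32.05 CPM in Marco-zero macrophages of replicate 1, and at 0 CPM in members and 18.9 CPM in Marco-zero macrophages of replicate 2. Ube2c, a mitotic ubiquitin enzyme, stood at 125 CPM in members and 36.6 CPM in Marco-zero macrophages of replicate 1, and at 16.5 CPM in members and 18.6 CPM in Marco-zero macrophages of replicate 2. None of these 3 was higher in the members of replicate 2. Pclaf, a replication factor, stood at 228 CPM in members and 36.5 CPM in Marco-zero macrophages of replicate 1, and at 24.7 CPM in members and 15.7 CPM in Marco-zero macrophages of replicate 2. The members of replicate 2 had 3 Pclaf UMIs, a ratio of 1.58 with a counting interval of 0.320 to 4.73. The naming rule required the direction of Pclaf in replicate 2, and its size there was not resolved.

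Of 7 acute phase and alarmin genes measured, 3 were higher and 0 lower (Saa3, S100a4 and S100a6). Saa3 is a proposed marker, so its call is a description. S100a4, a calcium-binding protein, stood at 1324 CPM in members and 277 CPM in Marco-zero macrophages of replicate 1, and at 1045 CPM in members and 975 CPM in Marco-zero macrophages of replicate 2, with levels close together in replicate 2. In monocytes S100a4 stood at 2130 CPM in replicate 1 and 3237 CPM in replicate 2, above the members of both libraries. Of 10 interferon response genes measured, 2 were higher and 0 lower (Oasl2 and Ifitm6), and without scaling Ifitm3, Irf7 and Rsad2 were called higher as well. Of 7 inflammatory mediators measured, 1 was higher and 1 lower (Acod1 higher, Osm lower). Of 14 efferocytosis and Fc receptor genes measured, 1 was higher and 4 lower (Cd300ld higher, Axl, Cd300a, Cd300lf and Itgb5 lower), of which Cd300lf was not called without scaling. Of 13 transcription factors measured, 1 was higher and 4 lower (Rbpj higher, Cebpa, Bhlhe40, Nr4a1 and Nfil3 lower). Without scaling Cebpa and Nfil3 were not called and Maf was higher, and with RLE scaling Atf3 was lower as well. Of 4 Toll-like receptor genes measured, 1 was higher and 1 lower (Irak3 higher, Ly96 lower), of which Ly96 was not called without scaling. Of 5 alternative activation genes measured, 1 was higher and 1 lower (Mrc1 higher, Chil3 lower), where Mrc1 is a proposed marker. Of 10 glycolysis and hypoxia genes measured, 0 were higher and 0 lower, where Ero1l was called higher without scaling.

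**Figure D3:**
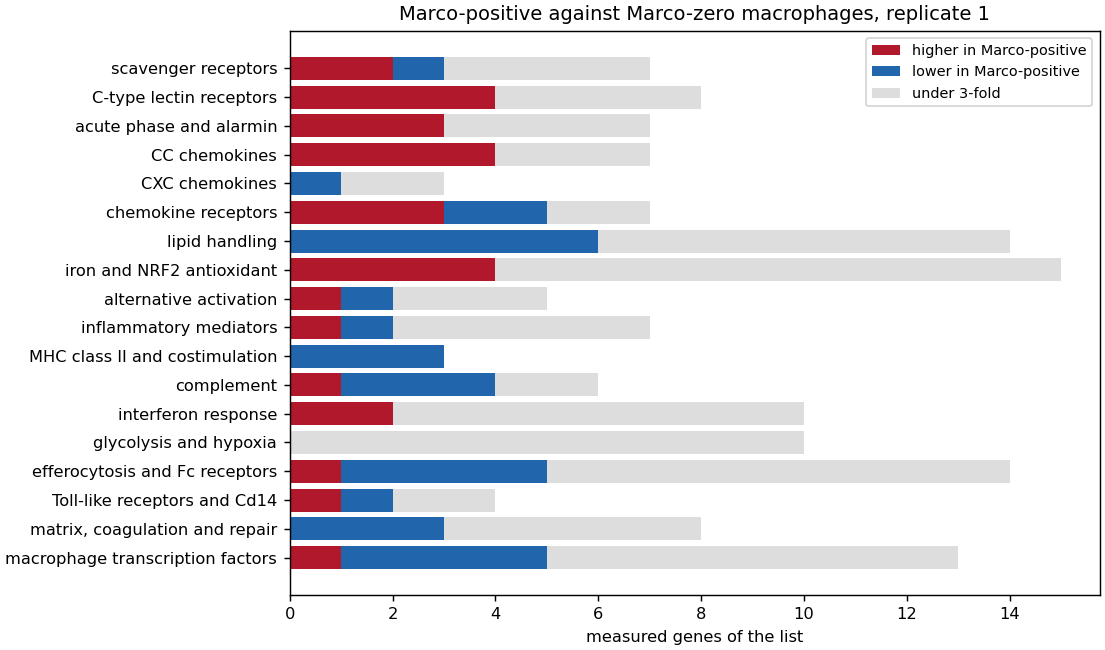
Number of measured genes of each list that were higher (red), lower (blue) or not called (grey, under 3-fold) in Marco-positive against Marco-zero macrophages of replicate 1, by TMM-scaled levels. The CC chemokines have 4 genes higher, among them the proposed marker Ccl6, and the lipid handling genes 6 lower. Proposed markers are counted in the lists.

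Among the lower named genes, Fos, an immediate early transcription factor, stood at 213 CPM in members and 1303 CPM in Marco-zero macrophages of replicate 1, and at 41.1 CPM in members and 2239 CPM in Marco-zero macrophages of replicate 2. Rgs1, a regulator of G protein signalling, stood at 118 CPM in members and 965 CPM in Marco-zero macrophages of replicate 1, and at 32.9 CPM in members and 1074 CPM in Marco-zero macrophages of replicate 2. Gadd45b, a stress response gene, stood at 25.6 CPM in members and 190.5 CPM in Marco-zero macrophages of replicate 1, and at 8.23 CPM in members and 210.3 CPM in Marco-zero macrophages of replicate 2. All 3 were lower in the members of both libraries, which the naming rule required. The other genes named by size were Marcksl1, Ccnd1, Igfbp4, Cdk18, Ly6a and Glrx on the higher side and Syngr1, Apoc1, Chil3, Abi3, Gngt2, Ccrl2, Bcl2a1b, Pmepa1, Itgb5, Hebp1 and Tmem86a on the lower side. Ly6a stood at 184 CPM in members and 424 CPM in monocytes of replicate 1. In replicate 2 it stood at 436 CPM in members and 404 CPM in monocytes.

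Against monocytes, members had lower levels of Chil3, Il1b and Ccr2 and of several interferon response and matrix genes, and higher levels of Lpl and of some iron genes. Of 2444 genes measured in replicate 1, 45 were higher (1.84%) and 107 lower (4.38%) in members, of which 44 and 107 were autosomal. In replicate 2 the same sign was seen for 40 of the higher and 107 of the lower genes, where 32.1% of all measured genes were higher and 67.9% lower. The higher genes include Marco, Saa3, Mrc1 and Cd36, and the lower ones Ly6c2 and Plac8, which chose the monocytes. Without scaling the split was 62 higher and 93 lower. With every cell weighted equally it was 201 higher and 160 lower, the opposite balance. In cells of at least 5000 UMIs, which left 19 monocytes, 29 genes were higher and 41 lower, and only 19 and 24 of these are among the genes called in all cells. Log2 ratios of CPM against monocytes are lower with TMM than without scaling, by 0.09 in replicate 1 and 0.57 in replicate 2. Both comparisons share the members, so their values are not independent.

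Chil3, a chitinase-like protein, stood at 19.96 CPM in members and 1610 CPM in monocytes of replicate 1, and at 0 CPM in members and 4102 CPM in monocytes of replicate 2, at least 166-fold lower in replicate 2 by a floor of 3 UMIs over the 6 cells. Il1b, the cytokine interleukin-1 beta, stood at 31.1 CPM in members and 1040 CPM in monocytes of replicate 1, and at 0 CPM in members and 2308 CPM in monocytes of replicate 2. Ccr2, the receptor that draws monocytes into tissue, stood at 19.2 CPM in members and 308 CPM in monocytes of replicate 1, and at 98.7 CPM in members and 521 CPM in monocytes of replicate 2. Each was lower in the members of both libraries, which the naming rule required of Chil3 and Il1b. Of 10 matrix and repair genes measured, 0 were higher and 5 lower (Fn1, Thbs1, Tgfbi, F13a1 and F10). Fn1, fibronectin, stood at 16.8 CPM in members and 339 CPM in monocytes of replicate 1, and at 0 CPM in members and 669.9 CPM in monocytes of replicate 2. Of 14 interferon response genes measured, 0 were higher and 9 lower. Isg15, a ubiquitin-like interferon-induced protein, stood at 60.7 CPM in members and 455 CPM in monocytes of replicate 1, and at 214 CPM in members and 1337 CPM in monocytes of replicate 2.

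Of 14 lipid handling genes measured, 2 were higher and 0 lower (Lpl and Cd5l), and of 15 iron and antioxidant genes measured, 3 were higher and 0 lower (Slc40a1, Tfrc and Gclm), with 1 gene lower under RLE scaling. Lpl stood at 1108 CPM in members and 247 CPM in monocytes of replicate 1, and at 913 CPM in members and 113 CPM in monocytes of replicate 2. Tfrc stood at 101 CPM in members and 13.5 CPM in monocytes of replicate 1, and at 107 CPM in members and 17.3 CPM in monocytes of replicate 2. Cat, which encodes catalase, stood at 235 CPM in members and 34.7 CPM in monocytes of replicate 1, and at 107 CPM in members and 27.00 CPM in monocytes of replicate 2. These genes were higher in the members of both libraries, which the naming rule required. Mcm6, a subunit of the replicative helicase, stood at 71.1 CPM in members and 15.4 CPM in monocytes of replicate 1, and at 57.6 CPM in members and 9.002 CPM in monocytes of replicate 2. Pcna, the sliding clamp of replication, stood at 235 CPM in members and 73.2 CPM in monocytes of replicate 1, and at 230.3 CPM in members and 75.01 CPM in monocytes of replicate 2. Of 5 cycling markers measured, 0 were higher and 0 lower, with a median log2 ratio of 0.09 in replicate 1 and -1.14 in replicate 2. Slc13a3 stood at 491 CPM in members and 32.7 CPM in monocytes of replicate 1.

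Of 7 CC chemokines measured, 0 were higher and 0 lower against monocytes. Ccl9 stood at 898 CPM in members and 728 CPM in monocytes of replicate 1, and at 1127 CPM in members and 692 CPM in monocytes of replicate 2. Acod1 stood at 207 CPM in members and 127 CPM in monocytes of replicate 1, and at 90.5 CPM in members and 55.5 CPM in monocytes of replicate 2. Apoe stood at 11725 CPM in members and 17801 CPM in monocytes of replicate 1, and at 724 CPM in members and 11703 CPM in monocytes of replicate 2. None of these 3 was called against monocytes, although Apoe was far lower in the 6 members of replicate 2.

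**Figure D4:**
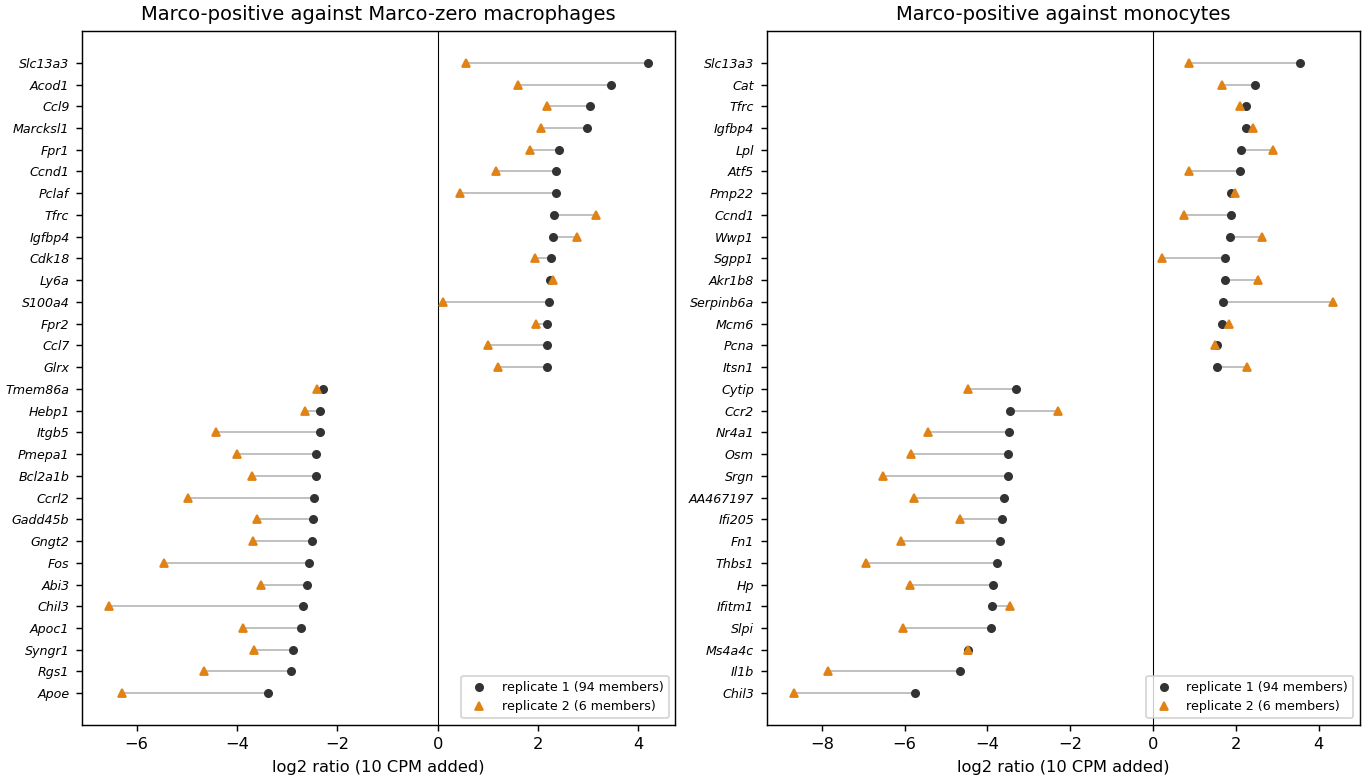
Log2 ratio, with 10 CPM added to both levels, of the named genes in Marco-positive macrophages against Marco-zero macrophages and against monocytes, with a point for each replicate. The naming rule required the same sign in both libraries, and S100a4 and Slc13a3 are nearer 0 in replicate 2 than in replicate 1.

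Sex-linked transcripts differed between the kinds of cell. Unscaled Xist was 304 CPM in members and 9.45 CPM in Marco-zero macrophages of replicate 1, and 263 CPM in members and 3.13 CPM in Marco-zero macrophages of replicate 2. In monocytes it was 184 CPM in replicate 1, from 9 cells, and 21.6 CPM in replicate 2. Summed Y-linked genes were 25.9 CPM in members and 88.7 CPM in Marco-zero macrophages of replicate 1, and 0 CPM in members and 109.5 CPM in Marco-zero macrophages of replicate 2. They were 88.9 CPM in monocytes of replicate 1 and 128 CPM in those of replicate 2. The labels give neither the sex nor the number of animals, so differences between kinds of cell and between animals cannot be told apart in the comparisons above.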

How the data were processed

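Single-cell RNA was measured in 2 libraries of 1 group. The values are deposited as unnormalised UMI counts for each barcode, in matrices that per the file headers come from Cell Ranger. Seurat 4, STAR 2.5.1b and Cell Ranger 4.0.0 appear in the submitters' processing notes, as do the genome builds mm10, GRCm38 and GRCh38, with no role stated. How reads shared by related genes (Ccl7 and Ccl12, the H2 and Ifitm genes) were counted was not checked. Coordinates are 1-based, from GENCODE vM21 on GRCm38. The members, gene lists and markers were chosen with earlier results of these data known.

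UMIs were summed per kind of cell and library, scaled by TMM factors from edgeR 4.0.16 (R 4.3.3) and analysed with Python 3.11.15, numpy 2.4.6, scipy 1.17.1 and pandas 2.3.3. The planned test, edgeR's quasi-likelihood test with a library block, leaves out a kind with under 20 cells in a library. Replicate 2 holds 6 members, so that test is only an alternative, as is DESeq2 1.42.0, and no p-value is given. The rule of at least 3-fold, 50 CPM and 25% of cells took the place of the adjusted p of the planned naming rule. It was chosen after fold lists of these comparisons had been seen. Levels were first computed as plain CPM; TMM, which the plan names for the test, was adopted after both splits were known, and both are printed. Named genes are the 15 highest and 15 lowest autosomal called genes with the same sign in both libraries, without rule genes, proposed markers and predicted genes, plus members of the lists.

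Doublets were not removed. Scrublet (scanpy 1.11.5) marked 1426 of 15050 cells in replicate 1 and 0 of 7910 in replicate 2, which counts as a failed call, so an alternative leaves out the 1812 and 501 top-scoring cells. Other alternatives changed the Marco, microglial, mitochondrial and depth limits, the scaling, the fold and the weighting of cells. Binomial and Poisson intervals at 95% cover counting error only. Free RNA, from barcodes under 100 UMIs, held 4.91% and 4.40% of UMIs. The fold rule and edgeR were run on simulated sums that did not model single cells, so their error rates on these data were not measured. The library numbers pair the kinds of cell, since both kinds of each comparison come from the same library. Some items of the rules and lists are not reported here.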

Additional observations from a re-analysis of the deposited data

Results flagged for a closer look

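Marco was found outside cells in replicate 1. Barcodes under 100 UMIs, which no comparison uses, held 389 Marco UMIs or 77.7 CPM (exact 95% Poisson interval 70.2 to 85.8), above the 0.599 CPM that a count of 0 would allow, and above the 22.7 CPM over all cells of that library. In replicate 2 they held 1 Marco UMI or 0.361 CPM, against 1.30 CPM over all cells. The series has no control sample to set them against.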

How the results depend on the processing

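Against Marco-zero macrophages 225 genes were called in all and against monocytes 152. The first count became 118 with Marco at least 1 UMI, 574 at 2-fold, 118 at 4-fold and 6377 with no filter on low levels (1247 higher, 5130 lower), and 504 without replicate 1. The second became 70 in cells of at least 5000 UMIs (which left 19 monocytes), 398 at 2-fold, 87 at 4-fold, 3309 with no filter (2286 higher, 1023 lower), 361 with every cell weighted equally (201 higher, 160 lower) and 661 without replicate 1. Called genes of the function lists numbered 55, and under other settings 33 with Marco at least 1 UMI, 86 at 2-fold, 33 at 4-fold and 122 with no filter. Plain CPM gave 189 higher and 67 lower, and RLE scaling 87 and 139, against 101 and 124 with TMM.

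With the 6 cells of replicate 2 as 1 sum, edgeR with the replicate block called 569 (287 higher, 282 lower) and 321 genes in the 2 comparisons. It called 604 and 351 with RLE scaling, 1143 and 770 without the low-count filter, and 980 and 485 with only the 2 kinds. DESeq2 called 854 and 630, and edgeR with no replicate block 253 and 134. Of the named genes, edgeR with the block did not call S100a4, Ccl7, Lpl and Ifitm1. Without replicate 1, 4 log2 ratios against Marco-zero macrophages reversed. Gsr was -0.64 there and 1.54 without replicate 2, Mki67 -1.31 and 1.35, Top2a -1.53 and 1.74, and Ube2c -0.11 and 1.54.

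The share of members in replicate 1 became 2.55% with Marco at least 1 UMI, 2.05% in cells of at least 5000 UMIs, 1.03% thinned to 2000 UMIs and 1.03% with Marco at least 5 UMIs. That of replicate 2, 0.445%, became 0.168% thinned and 0.297% with Marco at least 5 UMIs, both within its counting interval. Of 1425 single-gene values under 13 alternatives, 933 moved by less than the counting error of the members, 488 moved more and 4 reversed. In the setting without replicate 1, 97 moved more, 4 reversed and 14 stayed within that error. With every cell weighted equally, 73 moved more and 42 stayed within it. The 2-fold, 4-fold, plain CPM, equal-weight, Marco at least 5 and 6-cell edgeR settings were chosen after seeing the data. Depth limits replicate 2, where members sum to 91166 UMIs against 1120877 in replicate 1.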
